A study of Mus musculus with 3 samples.

Results

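Enteroendocrine cells of the mouse distal colon were described here one cell at a time, in untreated animals and after a chemically induced colitis. The cells were the 102 of 37080 deposited cells to which the authors' cell table gave the name Colonocytes - EEC, where EEC stands for enteroendocrine cells. They made up the authors' cluster 24, and no other cluster carried the name. Day 0 contributed 78 of them and days 7 and 42 contributed 12 each. Together with 6253 cells named colonocytes and 693 named secretory colonocytes they formed the 7048 columnar cells of the series.

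All mice were of the strain C57Bl/6 and were bought at 6 weeks of age. The day 0 animals were untreated, with a normal histology in the labels. The day 7 and day 42 animals had received dextran sulfate sodium (DSS, a polymer that injures the colonic lining) at 3% in their drinking water for 6 days from day 0, and the labels call them severely colitic at day 7 and recovered at day 42. Distal colon and anus of 5 mice were pooled on each day, digested with trypsin and depleted of Annexin V-binding dead cells before 10x 3′ capture, so there was 1 library per day and no replicate. No test between days was possible, no p-value or standard error is given, and every interval below is a 95% interval for counting error alone. The libraries held 11037, 14376 and 11667 cells.

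Enteroendocrine cells are scattered single cells of the gut epithelium that sense the lumen and release peptide hormones or serotonin from dense-core granules. In the distal colon the known kinds are L cells, which make peptide YY, glucagon-like peptides (from Gcg) and insulin-like peptide 5 (Insl5), D cells, which make somatostatin (Sst), and enterochromaffin cells, which make serotonin with the enzyme Tph1. All arise from crypt progenitors that pass through a short phase of Neurog3 expression.

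The name was checked against 6 markers: Chga, Chgb, Pyy, Gcg, Insl5 and Neurod1, each of which had transcripts in the enteroendocrine cells of every library. A transcript is counted here as 1 unique molecular identifier (UMI). At least 3 of the 6 markers had a UMI in 68 of 78 cells of the day 0 library, all 12 of day 7 and 10 of 12 of day 42, against 4 of 3749 colonocytes and 0 of 479 secretory cells at day 0. None of the 6 was seen in 1 enteroendocrine cell at day 0 and 2 at day 42. T cell and B or plasma cell markers were at 0 in all 3 libraries, and Ptprc, carried by leukocytes, had 0, 3 and 1 UMIs. Absorptive colonocyte markers summed to 70.3, 0 and 39.8 CPM (the group's UMIs of a gene, scaled to a group total of 1e+06).

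Some cells carried transcripts of a second kind of cell. Goblet markers (5 genes, mucus-producing cells) summed to 385, 32.2 and 7928 CPM in the enteroendocrine cells of day 0, 7 and 42, and 564 of the 598 UMIs at day 42 came from 1 cell. Squamous keratinocyte markers summed to 385, 8446 and 1538 CPM, with 755 of 786 UMIs at day 7 in 1 cell. Neutrophil markers summed to 0, 8317 and 172 CPM, with 766 of 774 UMIs at day 7 in that same cell, which held 35269 UMIs, the most of any of the 102. Cells with at least 20 UMIs of goblet, squamous or neutrophil markers numbered 4, 1 and 2, and ratios between days that rest on them are given with and without them. Of 139 barcodes found in more than 1 library, 1 belonged to an enteroendocrine cell.

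Enteroendocrine cells were a small share of the columnar epithelium on each day. The untreated library held 1.81% of them among its columnar cells (interval 1.43 to 2.26), the colitic one 1.13% (0.585 to 1.97) and the recovered one 0.714% (0.370 to 1.24). The day 0 and day 42 intervals did not overlap, while that of day 7 overlapped both. Set against secretory and enteroendocrine cells together the order was another one, with 14.0% (11.2 to 17.2), 25.5% (13.9 to 40.3) and 6.28% (3.29 to 10.7), and of the day 7 library's secretory cells only 35 were recovered. Median UMIs per enteroendocrine cell were 6968.5, 5382.5 and 5894.5, and the groups summed to 568807, 93064 and 75432 UMIs. More than 20% of the UMIs were mitochondrial in 15, 4 and 2 of the cells. At day 7, 14 cells with at least 20 UMIs of Sst and 15 with at least 5 of Chgb carried a keratinocyte name in the authors' cluster 12 and were not counted, against 1 and 8 enteroendocrine cells that reached these numbers. No cell of that cluster reached either number at day 0 or day 42. Whether these shares follow the tissue or the yield of the digestion cannot be told apart.

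Peptide hormone transcripts were high in the enteroendocrine cells. In 3′ libraries each transcript gives its tag at 1 end, so CPM needs no division by gene length. Pyy (ENSMUSG00000017311, GRCm38 chr11:102106676-102107832, a protein-coding gene in GENCODE M21, as are the others given with coordinates), which encodes the appetite-suppressing peptide YY, stood at 72012 CPM before DSS (interval 71316 to 72713), and then at 35416 (34218 to 36647) on day 7 and 77633 (75657 to 79647) on day 42. Gcg (chr2:62474530-62483650), the precursor of glucagon-like peptides, stood at 8382, 12228 and 2320 CPM. At day 7, 1 cell held 2900 of 3296 Pyy UMIs and 1117 of 1138 Gcg UMIs, which the counting intervals do not cover. Insl5 (chr4:103017872-103026842), a relaxin-family peptide made by colonic L cells, stood at 6725, 1580 and 4057 CPM. Sst (chr16:23889573-23890958), whose product inhibits the release of other hormones, stood at 6674, 5910 and 1352 CPM. Lower levels came from Ppy (pancreatic polypeptide) at 691, 10.7 and 3235 CPM, Cck (cholecystokinin) at 302, 215 and 477 CPM, and Sct (secretin) at 232, 183 and 689 CPM. No UMI of Nts, Gip, Npy, Penk or Ucn3 was found in the enteroendocrine cells of any library. For Nts, 0 of 78 cells at day 0 allows a share of cells with a UMI of up to 3.85%.

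These transcripts were low in the other columnar cells. At day 0 colonocytes held 9.12 CPM of Pyy, 0.603 of Gcg, 0.678 of Insl5 and 7.84 of Sst, which puts Pyy 7896-fold and Gcg 13900-fold higher in the enteroendocrine cells (ratios of CPM). Ppy, at 0 in colonocytes, was at least 9167-fold higher, taking 3 counts over the group as the floor. Cells that should lack a hormone give the background from free RNA. A Pyy UMI was seen in 85.9% of enteroendocrine cells, 5.12% of colonocytes and 1.37% of T cells at day 0, at median depths of 6968.5, 9679 and 2064 UMIs. For Gcg the same shares were 51.3%, 0.507% and 0.457%. A threshold of 5 UMIs was used to call a cell positive, which 10 of 3749 colonocytes and no T cell reached for Pyy.

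**Figure D1:**
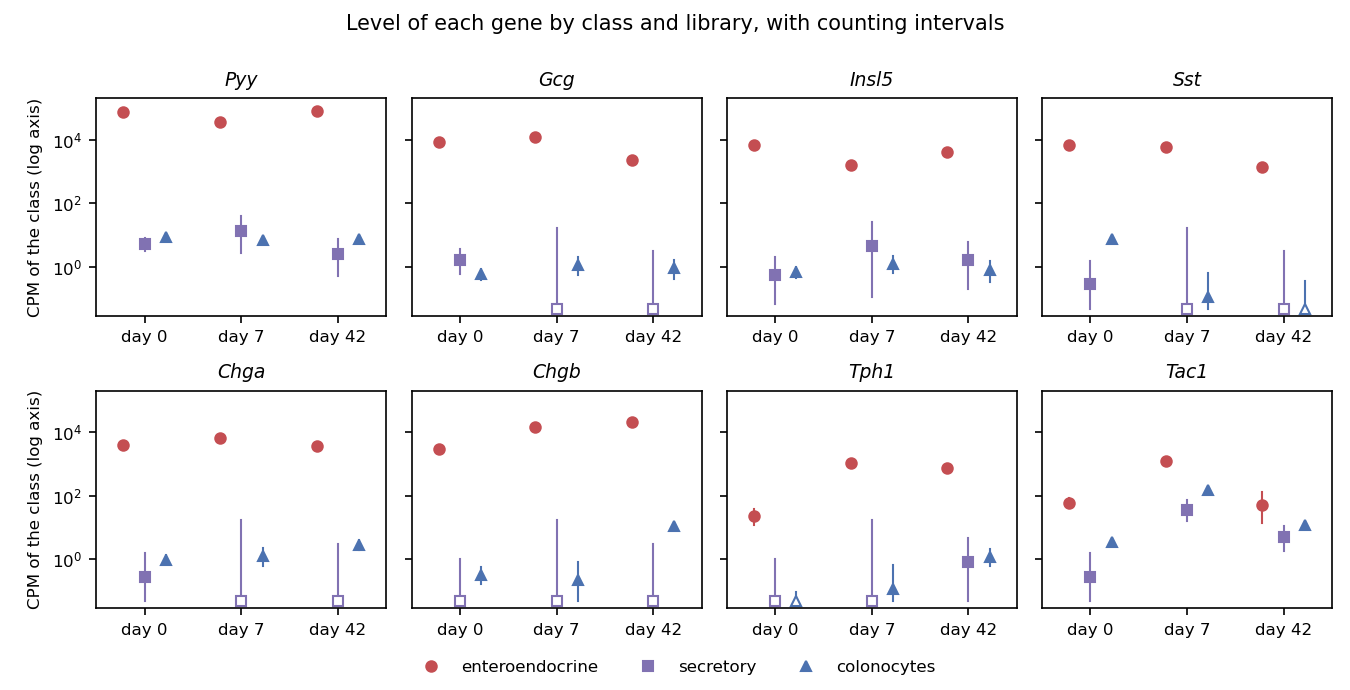
CPM (UMIs scaled to a class total of 1e+06, log axis) of 8 genes in enteroendocrine, secretory and colonocyte classes of the day 0, day 7 and day 42 libraries, 1 pooled library per day. Lines are Poisson 95% intervals for counting error, and open symbols at the foot of the axis are classes with no UMI. The enteroendocrine points lie far above the other classes for the peptide hormones and granins, while Tac1 is also higher in colonocytes at day 7 (155 CPM) than at day 0 (3.44 CPM).

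Genes were compared between classes as the log2 ratio of CPM with 10 CPM added to both, over genes with at least 100 CPM in either class. Because enteroendocrine cells were grouped by their expression in the first place, these ratios are a description of the group. At day 0, 205 of 1995 genes (10.3%) were at least 4-fold higher in enteroendocrine cells than in colonocytes and 98 (4.91%) at least 4-fold lower. The balance depends on scaling: 67.7% of the calls were higher as given, 44.9% with median-of-ratios size factors (158 higher and 194 lower), which shift all ratios down by 0.48, and 51.0% without mitochondrial and ribosomal protein genes in the totals (200 and 192). Against secretory cells 180 of 1929 genes were higher (9.33%) and 77 lower (3.99%), a share of 70.0% that became 47.2% (149 and 167) and 54.8% (176 and 145) under the same scalings. Of 1476 genes measurable in each library, 75 were higher than in colonocytes at days 0, 7 and 42 alike out of 99 that were so at day 0. In the later libraries taken alone, 203 of 2061 genes were higher than in colonocytes at day 7 (9.85%) and 212 lower (10.3%), and 174 of 2043 were higher at day 42 (8.52%) and 134 lower (6.56%). Against secretory cells 299 of 1968 were higher at day 7 (15.2%) and 162 lower (8.23%), and 130 of 1935 were higher at day 42 (6.72%) and 65 lower (3.36%).

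The genes that stood highest over colonocytes included hormones, granins and others of several functions. In order they were Pyy (log2 ratio 11.88), Gcg (9.63), Insl5 (9.30), Sst (8.55), Chga (8.45), Chgb (8.18), Pcsk1n (7.69), Scg2 (7.11), Resp18 (6.69), Cldn14 (6.33), Scg5 (6.21), Ppy (6.13), Scgn (5.91), Pappa2 (5.90), Rbp4 (5.79), Rprm (5.67), Olfr78 (5.45), Peg3 (5.34), Tuba1a (5.29) and Cpe (5.28). Against secretory cells the leading genes were again Pyy (12.19), Gcg (9.49), Sst (9.34), Insl5 (9.32), Chga (8.54), Chgb (8.22), Pcsk1n (7.75), Scg2 (7.25), Resp18 (6.71) and Scg5 (6.20). Lowest against colonocytes were Car1 (-5.23), a carbonic anhydrase of absorptive cells, Saa1 (-4.46), Lypd8 (-4.08), Sprr2a3 (-4.02), Muc3 (-3.94), Dmbt1 (-3.88), Pmp22 (-3.88), Prss32 (-3.78), Sycn (-3.70) and Ube2c (-3.62).

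Granins, the acidic proteins that condense hormones into granules, were high apart from Vgf. Chga (chr12:102554969-102565028) stood at 3829, 6297 and 3765 CPM at day 0, 7 and 42. Chgb (chr2:132781278-132795079) stood at 2975, 14646 and 21264 CPM, most of it in the few cells termed Chgb-high, with at least 50 UMIs of it. Scg2 stood at 1515, 408 and 1657 CPM and was at 0 in secretory cells at day 0, a level at least 1776-fold lower. Of 7 genes of the granin list 6 passed the expression filter at day 0, and these 6 were at least 4-fold higher than in colonocytes, a call made for 10.3% of all genes (median log2 ratio 7.40, against 0.23 over all genes tested). Vgf, which did not pass, stood at 17.6, 75.2 and 39.8 CPM. Pcsk1n, an inhibitor of Pcsk1 that was on both the granin and the processing list, stood at 2143, 1848 and 1856 CPM. Among proteins that cut, trim and amidate prohormones were Cpe at 1062, 892 and 1286 CPM, Pam at 735, 838 and 822 CPM and Pcsk1, an endocrine convertase, at 174, 140 and 146 CPM. Pcsk2, the convertase of pancreatic alpha cells, had no UMI. Of 9 processing genes 6 passed the filter and all 6 were higher (median 5.74). Members of these and the following endocrine lists passed the filter through their enteroendocrine level, so the counts describe the lists and support nothing further.

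The promoters of 4 of these secretory genes share a binding motif, shown because it links hormone, granin and convertase genes in sequence. The motif is the palindromic cAMP response element TGACGTCA, which the factor CREB is known to bind, and the 30 bases around it are printed on the gene's own strand with the motif in capitals, from RefSeq on GRCm38.p6. Chgb lies at chr2:132781559-132781588 (+), with the first base of the motif 72 bases before the RefSeq start, Scg2 at chr1:79440076-79440105 (-), 68 bases before, Pcsk1 at chr13:75089768-75089797 (+), 78 bases before, and Sst at chr16:23890874-23890903 (-), 48 bases before.
Chgb: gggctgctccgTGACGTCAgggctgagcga
Scg2: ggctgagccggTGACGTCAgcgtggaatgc
Pcsk1: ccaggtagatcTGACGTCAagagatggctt
Sst: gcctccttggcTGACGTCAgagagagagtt
Within windows of 250 bases before to 50 after the start, the motif occurred in 4 of the 34 windows of the hormone, granin and processing lists (11.8%, 27 of 31 genes matched by symbol) and in 588 of 32851 windows of all genes (1.79%). The E-box CAGATG, searched on both strands as a letter string that NeuroD-type factors can bind, was found in 9 of 34 windows (26.5%) and 17.1% of all. A match is a string of letters and not evidence of binding, and no test was made of these shares. GENCODE M21 starts Chgb and Sst upstream of the RefSeq start.

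Endocrine transcription factors formed the next layer. Of 21 listed, 13 passed the filter at day 0 and all 13 were at least 4-fold higher than in colonocytes (10.3% of all genes, median log2 ratio 3.87), and 12 of 14 were so against secretory cells (9.33% of all genes). They passed through the class where they are high. Neurod1, which drives endocrine differentiation, stood at 232, 365 and 265 CPM, Isl1 at 663, 258 and 292 CPM, Insm1 at 332, 183 and 292 CPM and Sox4 at 373, 193 and 1021 CPM. Neurog3, the factor that commits progenitors to the endocrine fate, was seen in 2 of 78 cells at day 0 (3 UMIs in all), in none at day 7 and in 2 of 12 at day 42, with 2 and 7 UMIs. Those 2 cells at day 42 had no UMI of Pyy, Gcg, Insl5, Sst, Chga, Chgb or Neurod1 and held 19 and 13 UMIs of goblet markers. Atoh1, which opens the secretory lineage, stood at 17.6 CPM in enteroendocrine cells at day 0 and 294 CPM in secretory cells. Hes1, a Notch target that represses it, stood at 61.5 CPM against 416 CPM in colonocytes (log2 ratio -2.57).

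Genes of regulated release were also measured. Of 21 exocytosis genes 10 passed the filter at day 0 and 9 were at least 4-fold higher than in colonocytes (10.3% of all genes), the exception being Rab3d (log2 ratio 0.70). The calcium sensor Scgn stood at 596, 96.7 and 252 CPM, the SNARE protein Snap25 at 225, 376 and 239 CPM and Ptprn, a granule membrane protein, at 190, 226 and 371 CPM. Of 14 ion channel genes 4 passed in the same way and these 4 were higher: Cacna1a, Scn3a, Kcnb2 and Piezo2, with 243, 169, 151 and 197 CPM at day 0. Only 3 of 18 receptor genes passed at day 0. These were Olfr78, a short-chain fatty acid receptor, at 434, 301 and 464 CPM, Agtr1a, the angiotensin receptor, at 250, 53.7 and 133 CPM, and the glucose transporter Slc5a1 at 174, 32.2 and 92.8 CPM, which was 0.98 above colonocytes on the log2 scale and so short of 4-fold.

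Genes of the other columnar fates lay low. Of 10 absorptive genes 9 were tested and 8 were at least 4-fold lower than in colonocytes (4.91% of all genes, median log2 ratio -2.80). Of 10 goblet cell genes 9 were tested against secretory cells and 8 were at least 4-fold lower (3.99% of all genes, median -5.29), among them Zg16 (-7.29) and Muc2 (-6.30). These genes passed the filter through the class where they are high. Goblet cell genes were not low against colonocytes, with 4 tested, 2 at least 4-fold higher (10.3% of all genes) and a median of 1.03. Of 3 proliferation genes tested 2 were at least 4-fold lower than in colonocytes (4.91% of all genes), and these 2 passed the filter through their colonocyte level. The tail-end positional gene Hoxb13 stood at 587, 387 and 278 CPM, next to 343 in colonocytes at day 0, and Cdx2 had 0 UMIs in enteroendocrine cells at day 0 with 0.402 CPM in colonocytes.

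Hormones were held by different cells to different degrees. At day 0, 63 of 78 cells had at least 5 UMIs of Pyy (80.8%, interval 70.3 to 88.8), 37 of Insl5 (47.4%, 36.0 to 59.1), 32 of Gcg (41.0%, 30.0 to 52.7), 14 of Sst (17.9%, 10.2 to 28.3), 13 of Cck (16.7%, 9.18 to 26.8), 3 of Tac1 and 1 of Tph1. Gcg and Insl5 went together, since 31 of the 32 Gcg cells were also among the 37 Insl5 cells. Pyy spanned the sets and reached 5 UMIs in 32 of 32 Gcg cells and in 14 of 14 Sst cells. Thinned to 1000 UMIs, a Pyy UMI remained in 85.5% of 76 cells, Insl5 in 52.6%, Gcg in 40.8% and Sst in 18.4%.

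Cells were then placed in 4 sets by limits set after seeing their values: Chgb-high with at least 50 UMIs of Chgb, otherwise Sst with at least 20 UMIs, otherwise Gcg or Insl5 with at least 5 UMIs, and the rest. At day 0 the lowest Chgb count inside its limit was 71 and the highest outside 19, and for Sst these were 20 and 0. The genes that define a set are therefore given as values only.

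**Figure D2:**
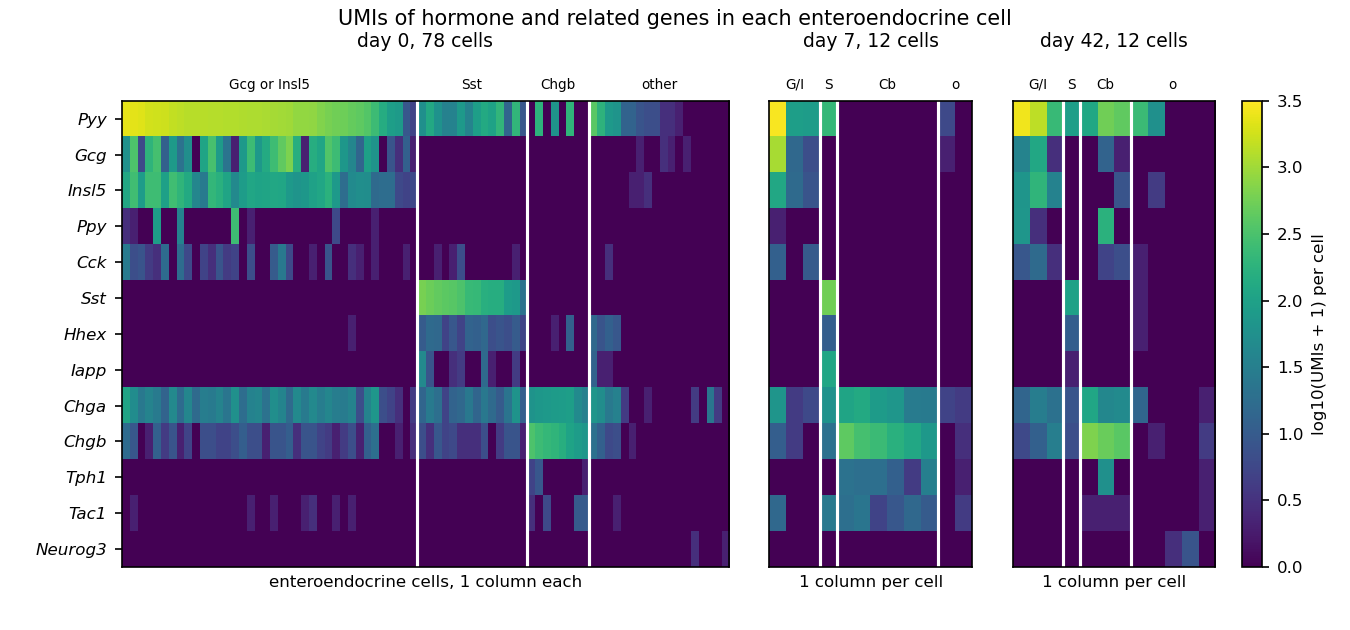
Each column is 1 enteroendocrine cell and each row 1 gene, with colour giving log10(UMIs + 1). Cells are ordered by library and by set (G/I, Gcg or Insl5; S, Sst; Cb, Chgb-high; o, the rest), and white lines part the sets. Pyy is bright across the 38 Gcg or Insl5 cells of day 0, dimmer in the 14 Sst cells, and dark in the 6 Chgb-high cells of day 7, where Tph1 and Tac1 appear.

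The Gcg or Insl5 cells numbered 38 at day 0. Their median counts per cell were 1109 UMIs of Pyy (4 to 2373), 90.5 of Insl5 (4 to 269) and 74 of Gcg (0 to 640), with Cck in 23 cells, Ppy in 8 and Sst in none. The transcription factor Etv1 was seen in 35 of the 38 cells, in 2 of 14 Sst cells and in 3 of 8 Chgb-high cells. Receptors of nutrients and regulators were counted in the 3 sets, which differ in depth. Gpr119, which binds lipid amides, was seen in 19, 0 and 0 cells, Ffar1, a fatty acid receptor, in 9, 0 and 0, Sstr5, the somatostatin receptor, in 14, 1 and 1, Galr1 in 12, 0 and 1, and Agtr1a in 28, 9 and 1. On the CPM scale the intervals of the Gcg or Insl5 set overlapped those of both other sets for Ffar1 (38.9, 0 and 0 CPM), Galr1 (38.9, 0 and 18.1 CPM) and Sstr5 (47.3, 10.9 and 18.1 CPM). For Gpr119 the interval (63.1 to 129) overlapped that of the Chgb-high set (0 to 66.8) but not that of the Sst set. For Agtr1a it (259 to 378) overlapped that of the Sst set (99.9 to 284) but not that of the Chgb-high set. Of others on the list, Olfr78 stood at 436, 0 and 960 CPM in the 3 sets, Ffar2, which binds short-chain fatty acids, at 86.2, 87.4 and 36.2 CPM, and Adra2a, an adrenergic receptor, at 5.56, 65.6 and 54.4 CPM. Across the 78 cells of day 0 genes among the 5 most alike to Gcg, by Spearman correlation of log CPM over 7529 genes, were Insl5 (0.858), Pappa2 (0.802), Scg2 (0.736) and Pyy (0.681). These cells share 1 library and differ in depth, with a median of 9166.5 UMIs in the set against 5935 in Sst cells.

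The 14 Sst cells of day 0 held a median of 222.5 UMIs of Sst (20 to 603) and 67.5 of Pyy (8 to 202), and none had a UMI of Gcg or Insl5. Hhex, a factor of somatostatin cells in the pancreas, was seen in 14 of 14 with a median of 8.5 UMIs (4 to 15), in 1 of 38 Gcg or Insl5 cells and in 2 of 8 Chgb-high cells. Hhex was not limited to cells with Sst, since 4 further cells with Pyy had 7 to 14 UMIs of Hhex and 0 of Sst. Iapp (amylin) was seen in 7 of the 14, in no cell of those 2 sets and in 3 of the 18 remaining cells. Runx1t1 was seen in 14 of 14, Pcsk1 in 14 of 14, and Piezo2, a mechanically gated channel, in 13 of 14. The same genes were seen in 12, 22 and 4 of 38 Gcg or Insl5 cells and in 5, 3 and 8 of 8 Chgb-high cells. Olfr78 was seen in 0 of 14 Sst cells, 28 of 38 Gcg or Insl5 cells and 6 of 8 Chgb-high cells.

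The 8 Chgb-high cells of day 0 held a median of 175.5 UMIs of Chgb (71 to 327) and 73 of Chga (32 to 92), with no UMI of Gcg, Insl5 or Sst. Genes of the serotonin list were seen in part. The vesicular monoamine transporter Slc18a1 was seen in 8 of 8, Lmx1a, which controls Tph1, in 5 of 8 and in no cell of the other sets named, Ddc, the second enzyme of serotonin synthesis, in 7 of 8 but also in 32 of 38 Gcg or Insl5 cells and 9 of 14 Sst cells, Piezo2 in 8 of 8 and Scn3a in 8 of 8. Tph1 itself was seen in 3 of 8, with at most 8 UMIs, and Tac1, the precursor of substance P, in 4 of 8. Pyy was held by 3 of the 8, with 62, 183 and 196 UMIs. Slc6a4, the serotonin transporter, had no UMI in the set and was seen in 5 of 38 Gcg or Insl5 cells. Slc18a2, the other vesicular monoamine transporter, had no UMI in any enteroendocrine cell. The remaining 18 cells of day 0 were of more than 1 kind. They had a median of 2194.5 UMIs, and 11 had over 20% mitochondrial UMIs, but 4 held 5722 to 8366 UMIs, with 63 to 402 of Pyy, 7 to 14 of Hhex and 0 of Sst, and Iapp in 3 of them.

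**Figure D3:**
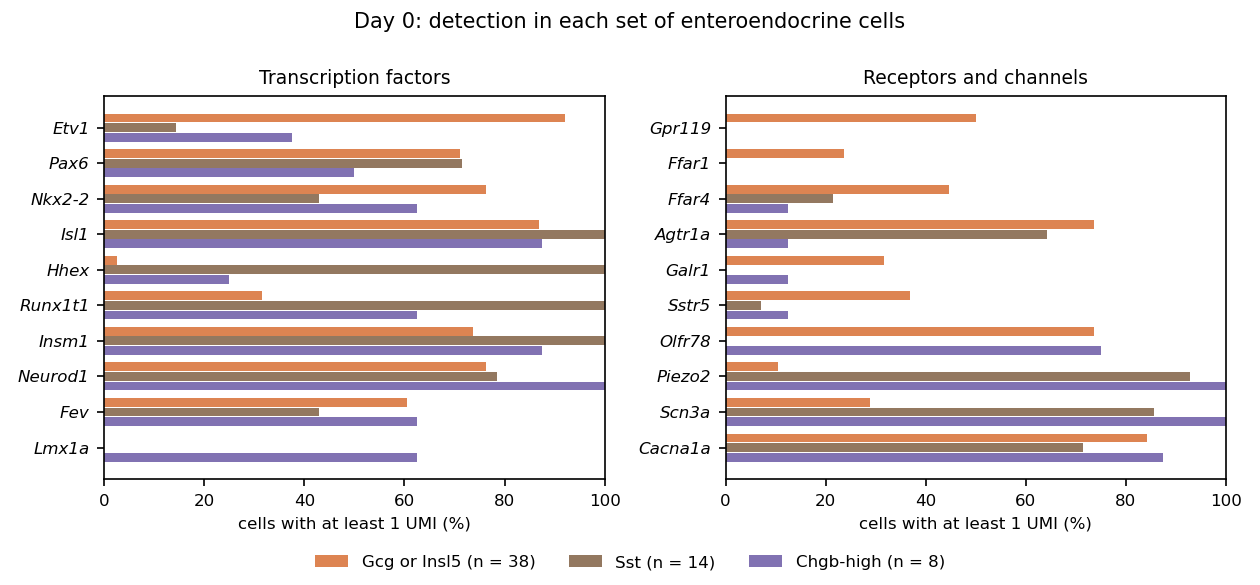
Percentage of day 0 enteroendocrine cells with at least 1 UMI of each gene, for the Gcg or Insl5 set (n = 38), the Sst set (n = 14) and the Chgb-high set (n = 8), in transcription factors and in receptors and channels. Etv1 and Gpr119 are highest in the Gcg or Insl5 bars, Hhex and Runx1t1 fill the Sst bars, and Piezo2 and Scn3a are highest in the Sst and Chgb-high bars.

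Set sizes differed between libraries, at small numbers. The Gcg or Insl5 set took 38 of the 78 untreated cells (48.7%, interval 37.2 to 60.3) and 3 of 12 (25%, 5.49 to 57.2) in each of the later libraries. Sst cells were 14 (17.9%, 10.2 to 28.3), 1 and 1 (8.33%, 0.211 to 38.5). Chgb-high cells were 8 (10.3%, 4.53 to 19.2), 6 (50%, 21.1 to 78.9) and 3 (25%, 5.49 to 57.2). The day 0 and day 7 intervals of the Chgb-high share did not overlap and those of the other sets did. The Sst cell of day 7 was the one with 35269 UMIs and keratinocyte and neutrophil transcripts, and without it no Sst cell was left at day 7. The shares of day 7 also depend on the authors' naming, since 14 cells with at least 20 UMIs of Sst and 15 with at least 5 of Chgb carried a keratinocyte name there.

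**Figure D4:**
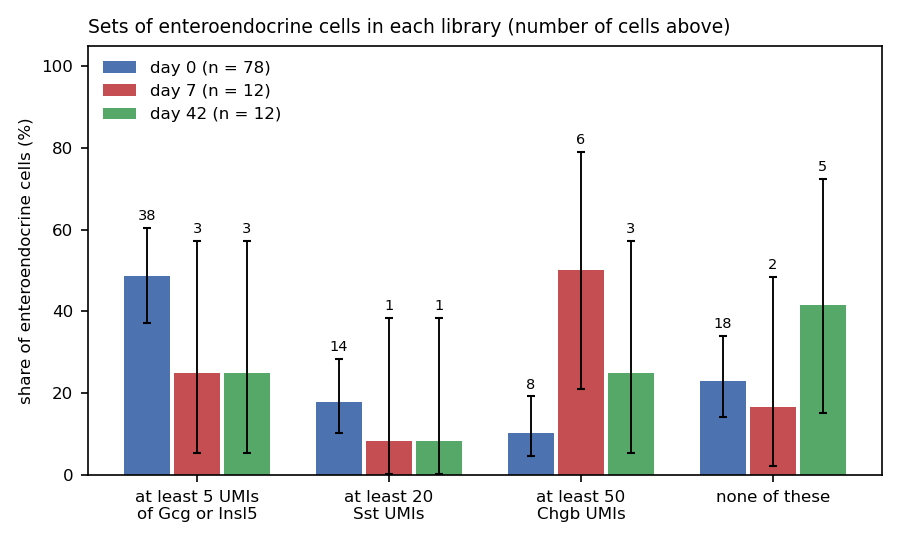
Share of enteroendocrine cells in each set (percent, bars from 0) in the day 0, day 7 and day 42 libraries, with exact binomial 95% intervals for counting error and the number of cells above each bar. The Chgb-high share is 10.3% at day 0 and 50% at day 7, from 8 of 78 and 6 of 12 cells.

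Tph1 and Tac1 differed between the day 0 and day 7 libraries by more than their counting intervals. Tph1 (chr7:46644641-46672537), the rate-limiting enzyme of serotonin synthesis in the gut, stood at 22.9 CPM before DSS (interval 12.2 to 39.1), and then at 1096 (894 to 1330) on day 7 and 756 (572 to 979) on day 42. It was seen in 3 of 78 cells at day 0 and 7 of 12 at day 7, or, with each cell thinned to 1000 UMIs, in 2.63% of 76 and 58.3% of 12 cells. T cells held no Tph1 UMI at day 0 or day 7, and 3 of 121 T cells held Tph1 at day 42 (2.48%). The log2 ratio of day 7 to day 0 was 5.07, and it ranged from 4.62 to 5.90 over 9 other settings, among them 4.62 without the day 7 cell holding most Tph1 and 5.61 without the cells of mixed markers. At day 42 the ratio of 4.54 rested on 1 cell with 56 of the 57 UMIs, and without it the ratio turned to -0.42.

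Tac1 (chr6:7554879-7565834) went the same way at day 7, with 59.8, 1257 and 53.0 CPM at day 0, 7 and 42 and a log2 ratio of 4.18 at day 7. At least 5 UMIs were held by 3 of 78, 7 of 12 and 0 of 12 cells. Tac1 was not limited to enteroendocrine cells at day 7: in colonocytes it stood at 3.44 CPM at day 0 and 155 at day 7 (log2 ratio 3.62), and 37.9% of colonocytes at day 7 had a UMI, against 0% of T cells. What part of the enteroendocrine Tac1 comes from that level was not tested.

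The difference in Tph1 and Tac1 was also present within the Chgb-high cells. The 6 such cells of day 7 had 3 to 31 UMIs of Tph1 and 4 to 22 of Tac1 each, all with 0 Pyy, while 5 of the 8 of day 0 had no Tph1. Within the set Tph1 stood at 236, 3387 and 3018 CPM on day 0, 7 and 42, the last value from 1 of 3 cells, and Tac1 at 453, 2515 and 162 CPM. Slc18a1 stood at 453, 402 and 108 CPM in the set, from 25, 12 and 2 UMIs, with overlapping intervals at day 0 (293 to 669) and day 7 (208 to 703). The 3 Chgb-high cells of day 42 held 397, 495 and 656 UMIs of Chgb, against at most 327 at day 0 and 432 at day 7. Each also held Pyy (121 to 547 UMIs), including the 1 with 56 UMIs of Tph1, which also held 12 of Gcg and 173 of Ppy. Another held 7 of Insl5 and 1 of Gcg, so 2 of the 3 would have passed the Gcg or Insl5 limit had it come first.

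Over all genes, 207 of 2065 tested were at least 2-fold higher in enteroendocrine cells at day 7 than at day 0 (10%) and 235 at least 2-fold lower (11.4%), with a median log2 ratio of -0.08. At day 42 against day 0 the counts were 134 (6.6%) and 183 (9.01%) of 2030, median -0.02. Both comparisons share the day 0 cells. The balance depends on scaling: 46.8% of the day 7 calls were higher as given. It was 53.8% without mitochondrial and ribosomal protein genes (321 higher and 276 lower) and 38.4% with median-of-ratios factors (179 and 287). At day 42 these shares were 42.3%, 50.95% (241 and 232) and 30.1% (111 and 258), and 64.2% as a mean of CPM per cell (415 and 231). In colonocytes, 176 of 1563 genes were at least 2-fold higher at day 7 (11.3%) and 57 lower (3.65%), and 49 of 1486 were higher at day 42 (3.3%) and 9 lower (0.606%). Leaving out, gene by gene, the cell with most UMIs in each library changed the counts to 76 higher and 383 lower at day 7 and to 56 and 302 at day 42. This takes 1 of 12 cells from the later library and 1 of 78 from day 0, so it lowers most ratios by its construction.

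Chgb had log2 ratios of 2.30 at day 7 (1.84 to 2.81 over the other settings) and 2.83 at day 42 (2.20 to 3.20). The Chgb-high cells, which this gene defines, held 1405 of 1692 Chgb UMIs at day 0, 1329 of 1363 at day 7 and 1548 of 1604 at day 42. In the other enteroendocrine cells Chgb stood at 559 CPM (interval 496 to 627), 538 (372 to 751) and 985 (744 to 1279). These cells were chosen by their low Chgb, so their levels are bounded by that choice. The peptide hormones of L cells did not give a stable order. Pyy had a ratio of -1.02 at day 7, but 2900 of its 3296 UMIs came from 1 cell and the ratio was -3.85 without it and -0.45 without the mixed cells. For Gcg, 1117 of 1138 UMIs at day 7 were in that cell and the ratio of 0.54 became -4.94 without it and 1.12 without the mixed cells. Insl5 went from -2.08 to -4.55 and Scg2 from -1.87 to -5.00, each without the day 7 cell with most of its UMIs, and to -1.42 and -1.25 without the mixed cells. Sst had a ratio of -0.18 at day 7 and -9.59 without the mixed cells. At day 42 Pyy was at 0.11, Insl5 at -0.73 and Gcg at -1.85, and without the day 42 cell with most UMIs of the gene these became -0.44, -2.0 and -3.42. Of the 5856 Pyy UMIs of day 42, 2700 lay in the cell of goblet markers, and without the mixed cells the Pyy ratio was -0.36. Ppy had a ratio of -5.08 at day 7 and 2.21 at day 42, with 261 of 393 UMIs at day 0 and 173 of 244 at day 42 in 1 cell each, and 0.57 at day 42 without the latter cell.

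Of 9 peptide hormones tested at day 7, 2 were at least 2-fold higher and 3 lower (median log2 ratio -0.33), of 5 serotonin genes 3 higher and 1 lower (1.06), and of 15 endocrine transcription factors 0 higher and 8 lower (-1.11), where 10% of all genes tested were higher and 11.4% lower, with a median of -0.08. Without the cells of mixed markers the transcription factors gave 3 higher and 5 lower of 16 (median -0.75) and the serotonin genes 4 higher and 0 lower of 6 (1.72), beside 9.75% higher and 13.4% lower of all genes and a median of -0.13. The factors lower with all cells included Foxa2 (-1.77), Isl1 (-1.33) and Pax6 (-1.11), and Lmx1a, which failed the filter with all cells, was at 14.1 and 96.7 CPM. At day 42 the 14 factors tested gave 2 higher, of which Sox4 (1.43) was one, and 5 lower, where 6.6% and 9.01% of all genes were. Of 8 genes known to respond to tissue dissociation tested at day 7, 0 were higher and 3 lower (-0.82, and -0.34 without the mixed cells), and of 9 tested at day 42, 0 were higher and 2 lower (-0.64), against 9.01% of all genes lower. Without the mixed cells 7 of 8 were lower at day 42 (-1.21), where 9.78% of all genes were lower. Their part in the differences between days was not tested, and Jun stood at 1535, 387 and 1193 CPM.

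Genes of keratinocytes and neutrophils were among those farthest apart between days. Highest at day 7 were S100a9 (8.92), Krt14 (5.15), Tph1 (5.07), Krt6a (4.69) and Rgs4 (4.41). The day 7 cell with 35269 UMIs held 445 of 450 UMIs of S100a9, 436 of 455 of Krt14 and 194 of 200 of Krt6a, and without the mixed cells the ratios were 3.27, 2.48 and 2.12, and without that cell alone 3.27, 1.29 and 0.44. That cell also held 49 of the Rgs4 UMIs of day 7, and the Rgs4 ratio was 2.89 without the mixed cells. In colonocytes the same genes had ratios of 6.78, 2.08 and 2.35. Lowest at day 7 were Mptx1 (-6.01), with 358 of 362 UMIs of day 0 in 1 cell and a ratio of -0.69 without the mixed cells, Ppy (-5.08), Acta1 (-4.43), Agr2 (-3.67) and Gdf15 (-3.46). Gdf15 was seen in 37 of 78 cells at day 0 and in 1 of 12 at day 7.

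At day 42 the highest ratios were those of Reg4 (4.51), Chgb (2.83), Agr2 (2.52), Krt5 (2.44) and Klk1 (2.40), and among the 5 lowest were Ldah (-2.89), Egr3 (-2.68), Klf2 (-2.47) and Gsto1 (-2.41). Agr2, a goblet cell disulfide isomerase, had 103 of its UMIs of day 42 in the cell of goblet markers, and its ratio was 1.24 without the mixed cells and -0.56 without that cell alone. Without the day 42 cell with most of its UMIs Krt5 was at 1.22 and Klk1 at 0.64. Reg4, a lectin of goblet and endocrine cells, was seen in 6 of 78 cells at day 0, 0 of 12 at day 7 and 4 of 12 at day 42, and its ratio was 5.62 without the cells of mixed markers. Of 8 goblet cell genes tested at day 42, 7 were at least 2-fold higher (6.6% of all genes, median 4.01). Without the mixed cells 3 of 4 were (9.45% of all genes, median 1.82), while Spink4 and Clca1 turned lower, at -1.86 and -0.69. That setting kept the 2 Neurog3 cells of day 42, with 19 and 13 UMIs of goblet markers, below the limit for mixed cells. Each other cell kept at day 42 held 0 or 1 such UMI. The goblet gene ratios without these 2 cells were not tested. Gsto1, with 459 of its 546 UMIs of day 0 in 1 cell, turned to 0.47 without the mixed cells. Ldah was seen in 45 of 78 cells at day 0.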

How the data were processed

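Single-cell 3′ libraries from pooled distal colon and anus were used, 1 per day. The authors deposited whole-number UMI counts per gene and cell for all 3 libraries in 1 matrix of 31053 genes, with a table of each cell's day, cluster and cell name. Cell Ranger 3.0.2 and the mm10 build are named, per the submitters' processing notes; the filter on cells and the method of naming them are not given in the sources used here. The deposited size factor, a ratio per cell, was used only to check that cells and columns match. Counts of the named cells were summed per library and given as CPM. Log2 ratios added 10 CPM to both sides, over genes with at least 100 CPM in either. Genes were called at 4-fold between classes and 2-fold between days. With 1 library per day no test was made, and intervals (exact binomial or Poisson, 95%) cover counting error only. A count of 0 was bounded by 3 counts.

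The genes named were the members of the gene lists with at least 100 CPM in enteroendocrine cells or on which a result turns, the 20 highest and 10 lowest against colonocytes, the 10 highest against secretory cells, and the 5 highest and 5 lowest for each day against day 0, without mitochondrial, ribosomal, haemoglobin, immunoglobulin, sex-linked and unnamed genes. Some genes that this rule names are not reported here. The members and lists were chosen with earlier results of these data known. The limits of the cell sets and of mixed cells were chosen after seeing the values. No doublets were removed, and as an alternative each library was taken without its 5% of highest Scrublet scores, which removed 5, 0 and 0 enteroendocrine cells. Scrublet's own threshold marked 0 of 14376 cells at day 7, so it had not worked there. On simulated counts for 31053 genes, the class comparison recovered 100% of genes made 8-fold higher and 96% of those made 8-fold lower, and called 0% of unchanged genes. The day 7 against day 0 comparison, with the same simulated 8-fold changes and a call at 2-fold, recovered 100% and 99% and called 5.903% of unchanged genes. Simulated counts were drawn per gene from group sums with Poisson error alone and held no cells. They leave out UMIs concentrated in single cells, so these are not error rates of the measured comparisons. Scripts ran under Python 3.11.15 with scanpy 1.11.5 for Scrublet, scipy 1.17.1 for intervals, pandas 2.3.3 and numpy 2.4.6 for tables and matplotlib 3.10.9 for plots.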

Additional observations from a re-analysis of the deposited data

Results flagged for a closer look

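Hormone transcripts were also present in cells that the authors named keratinocytes, which none of the comparisons use. In the authors' cluster 12, with 51, 1668 and 152 cells in the successive libraries, there were 939 UMIs of Sst, 273 of Chgb, 59 of Iapp and 52 of Tph1 at day 7, and 0 of each at day 0 and day 42. At day 7, 14 of these cells had at least 20 UMIs of Sst, and Pyy, Iapp and Krt14 were seen in all 14. Another 14 had at least 5 UMIs of Chgb with fewer than 5 of Sst, and Tph1 was seen in 11 of them and Krt14 in 14. No cell had at least 20 UMIs of Sst together with Tph1. The enteroendocrine cells held 36.1% of the Sst UMIs of the day 7 library and 92.0% of those of day 0, and 61.8% and 100% of Tph1. At day 42 they held 43.2% of Sst and 68.7% of Tph1, with the rest in cells outside cluster 12. Median depth was 1579.5 UMIs in the Sst cells and 2449.5 in the Chgb cells of the cluster. What part keratinocyte RNA or depth has in how these cells were named was not tested.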

How the results depend on the processing

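Of 257 values that answer a comparison, each under 1 alternative, 43 moved, and of 4127 gene and list values 227 turned their sign, 63 of them between classes. In 26 of the 227 the value had reached the fold used for calls (4-fold between classes, 2-fold between days), all between days. The cause was not tested. The share of columnar cells at day 0 was 2.59% when cells under 1000 UMIs, under 500 genes or over 20% mitochondrial UMIs were left out, and over all cells the shares were 0.707%, 0.0835% and 0.103%. With a filter of 50 CPM, 330 genes were higher and 158 lower than in colonocytes, 297 and 117 than in secretory cells, 509 and 540 at day 7 and 401 and 490 at day 42, since more genes were tested. Without mitochondrial and ribosomal protein genes, 192 genes were lower than in colonocytes and 145 lower than in secretory cells. Those totals gave 321 higher and 276 lower at day 7 (53.8% higher, against 46.8%). At day 42 they gave 241 higher and 232 lower (50.95% higher, against 42.3%). Median-of-ratios factors gave 194 and 167 lower genes against the other classes, and 111 higher and 258 lower at day 42 (30.1% higher, against 42.3% of 134 and 183). A mean of CPM per cell gave 415 higher and 231 lower at day 42 (64.2%). Without the cell with most UMIs of a gene, 76 were higher and 383 lower at day 7, and 56 and 302 at day 42.

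Shares of cells followed the threshold. At 1 UMI they were 35.9% for Cck, 15.4% for Tac1, 87.2% for Chga and 75.6% for Chgb at day 0, 100% for Chga at day 7 and 33.3% for Tac1 at day 42. At 20 UMIs they were 2.56% for Cck, 0% for Tac1 and Tph1, 57.7% for Chga and 10.3% for Chgb at day 0, 0% for Cck at days 7 and 42, 16.7% for Tac1 at day 7 and 33.3% for Chga at day 42. With the filter on cells Chga was at 95.2% at day 0, and at day 7 Chga and Chgb were at 100% and Tac1 at 87.5%.

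Leaving out the cells of mixed markers, an alternative chosen after seeing the data, put Sst at 0% of cells at day 7. Of log2 ratios that had reached 2-fold, those of day 7 then turned to -4.24 for Iapp, 0.28 for Krt19, -0.49 for Mki67 and Top2a and -1.01 for Slpi, and those of day 42 to -0.69 for Clca1, 0.47 for Gsto1, -0.79 for Lypd8 and -1.86 for Spink4. Without the cell with most UMIs in each library, ratios past 2-fold turned to -3.17 for Iapp, -0.44 for Mki67 and -0.24 for Slpi at day 7, and to -0.77 for Clca1, -0.62 for Lypd8 and -2.69 for Spink4 at day 42. Smaller ratios that turned included Gcg at day 7, from 0.54 to -4.76, and at day 42 Pyy, from 0.11 to -0.39, and Scg2, from 0.13 to -0.18. Leaving out that cell in the later library only, also chosen after seeing the data, turned ratios past 2-fold to -4.04 for Iapp, -0.61 for Mki67, -0.91 for Slpi and -0.43 for Top2a at day 7, and to -0.56 for Agr2, -0.91 for Clca1, -0.93 for Lypd8, -0.51 for Muc2, -3.93 for Spink4 and -0.42 for Tph1 at day 42. As a mean per cell Krt19 turned to 0.28 at day 7. Of the values that answer a comparison, a pseudocount of 1 CPM moved none of the 8 it was run on and thinning none of 30. Leaving out high Scrublet scores moved none of 41 of them, though it removed no enteroendocrine cell at day 7 or day 42. Of the gene and list values, the pseudocount moved 130 and left 352 the same. Leaving out high Scrublet scores moved 27 of those and left 455 the same. No paired analysis was possible because there was 1 pooled library per day. With 12 cells at day 7 and at day 42, a hormone seen in none allows a share of cells with a UMI of up to 25%, which limits detection and not expression.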
